A study of Mus musculus with 47 samples.

Results

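U-rich 3′ UTRs are those in which uridine makes up an unusually large share of the bases. They were chosen here from the annotated 3′ UTR intervals of protein-coding RefSeq transcripts, counting identical intervals once, as intervals of 200 to under 5000 bases in which T, the DNA letter for U, was at least 36% of the bases. The rule kept 1066 of 16491 intervals in this length range, out of 21788 of any length. U-poor 3′ UTRs, the comparison set, were the 3279 intervals of the same length range with a T share under 25%. The rule used the sequence composition only, and no measured value. The U-rich intervals belonged to 1032 gene symbols, 5 had no symbol, and they formed 1046 clusters of overlapping intervals, so that a few genes were counted more than once. Their median T share was 37.4% (36 to 48.6%), against 23.1% in the U-poor set. Just inside the threshold were Ccl20, Nxph2 and Srcap, each at 36%, with none covered well enough to be tested. Just outside were Atp6ap2, with 424 T in 1178 bases, Zfp709 and Esco2.

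The study followed the making and loss of mRNA in P19 cells. These are a mouse line derived from embryonal carcinoma, and retinoic acid turns them into neurons. SLAM-seq was used, in which cells take up 4-thiouridine (4sU) and each incorporated 4sU is later read as a T>C conversion. The 4sU dose was 20 µM in undifferentiated cells (D0) and 500 µM after 6 days in NDiff 227 medium with 500 nM retinoic acid (D6), so that the 4sU dose and the state of the cells cannot be told apart in any comparison of labeled cells of D6 with those of D0. In the catabolic assay cells were labeled for 15 h and then chased with unlabeled UTP, and in the anabolic assay they were sampled during uptake. Each assay had 4 time points. The labels and the methods of the study agree on 0 and 9 h and differ for those between (1 and 3 h in the labels, 3 and 6 h in the methods), which are called the second and the third time point here. There were 47 libraries, 3 in each group and 2 for the third catabolic time point at D6. The study calls its replicates biological, while the labels do not say whether they were separate cultures, and p-values measure the spread between these libraries.

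Uridine-rich and AU-rich stretches in 3′ UTRs are landing sites for RNA-binding proteins. Those of the ZFP36 family bind AU-rich elements built around the pentamer AUUUA and recruit deadenylases, which shorten the poly(A) tail and start decay, while ELAV (Hu) proteins bind similar U-rich sites and are known to stabilise mRNAs, several of them in neurons. Long uridine stretches also bind TIA proteins, PTB proteins and the La protein. In SLAM-seq a T-rich interval has a further property, which is that each read crosses more T positions at which a conversion can be seen.

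The sequence was taken from GENCODE vM21 transcripts on GRCm38 (mm10) for 93.7% of the 1066 U-rich intervals, read on the strand of the transcript. The motifs searched were the pentamer ATTTA, the longer TATTTAT and the nonamer TTATTTATT, each search counting overlapping matches, and the shorter motifs lie within the longer ones. ATTTA occurred in 83.1% of U-rich intervals, 40% of U-poor intervals and 68.6% of all intervals of the length range. TATTTAT occurred in 33.4%, 12.2% and 26.4%, and TTATTTATT in 9.11%, 2.93% and 6.46%. A run of at least 10 T was found in 23.7% of U-rich, 4.39% of U-poor and 16.4% of all intervals, and the longest in a U-rich interval was 38 bases. A match is a description of the letters and not a protein-binding site. In all, 830 U-rich intervals held an ATTTA.

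Windows of 30 bases are shown for 7 members, written 5′ to 3′ with the longest AU-rich motif, or else the longest T run, in capitals. Pfdn4 (chr2:170518948-170518977, plus strand) and Palb2 (chr7:122107262-122107291, minus strand) are among the 5 tested intervals with the highest T share. Qk (chr17:10212504-10212533, minus strand), Atf2 (chr2:73818830-73818859, minus strand) and Topors (chr4:40259948-40259977, minus strand) lost label fast in D0 or D6. Myl12a (chr17:70994478-70994507, minus strand) and Pfn1 (chr11:70651869-70651898, minus strand) lost it more slowly than the typical interval in both states. Coordinates are of mm10.
Pfdn4: catgtcttgcTTATTTATTttatattttta
Palb2: atgttaataaaTATTTATtttgatacattc
Qk: catttttaaatTATTTATgcttatttgagt
Atf2: agaccagtttgcATTTAtgcgaaatctgtg
Topors: tgctagctgtttATTTAaaacttgggaaac
Myl12a: ttcttgttttaTATTTATtctcagccattt
Pfn1: tggtcTTTTTTTTTTTTTTTTTTTTctgaa

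The interval of Qk (3990 bases) held 17 ATTTA, whereas that of Pfn1 (277 bases) held none and had a T run of 20 bases. The interval of Myl12a (819 bases) held 3 ATTTA, of which 1 lay in TATTTAT, and was nevertheless among those that lost label slowly.

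Reads on distinct 3′ UTR intervals ranged from 1421076 to 11297884 per library (median 5561985). Of the U-rich intervals 248 had no read in any library, and 540 (50.7%) were tested, which took 1000 covered T positions in the average library, as were 1467 of the U-poor set (44.7%) and 9820 intervals in all. Median lengths of the tested intervals were 804.5 bases in the U-rich and 774 in the U-poor set, and 819 and 641 bases at 10000 covered T. The median U-rich interval carried about 29.4 covered T per read and the U-poor one 19.5 in D0 cells at 9 h of chase. A limit on covered T therefore admitted U-rich intervals at fewer reads, and the comparisons below are also given at 10000 covered T (179 U-rich and 359 U-poor intervals) and at 500 reads per library (132 and 360). Several libraries stood apart by the number of U-rich intervals without any read or conversion. At 9 h of chase in D6, libraries 17 and 18 (numbered as in the labels) had no conversion in 162 and 163 of the 540 members, and library 35 at D0 in 189. At 9 h of uptake in D6, library 53 had no read on 109 members and no conversion on 150 more. At the third time point of chase in D6 library 14 had no read on 169 members and no conversion on 135 more, and library 15 on 78 and 113. At the second time point of chase in D6 library 12 had no read on 96 members and no conversion on 116 more. Library 40, at the second time point of uptake in D6, had no read on 91. At the third time point of uptake in D6 library 45 had no read on 80 members and no conversion on 186 more. Libraries of low complexity could give such numbers, which was not tested, and all were kept. As a check of the states, 7 neuron markers summed to 582 RPM (reads scaled to the library's total on 3′ UTRs) at D0 and 7906 at D6 without 4sU, and 6 embryonal carcinoma markers to 2371 and 797, of which Sox2, also expressed in neural progenitors, made up 979 and 782, while 4 of 4 astrocyte and 4 of 4 muscle markers were at 0 at D6. Of 4 oligodendrocyte markers 2 were at 0 and the sum was 50.5 RPM at D6 (39.8 at D0), and of 4 endoderm markers 3 were at 0 (4.15 and 1.47 RPM).

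After 15 h of 4sU, U-rich 3′ UTRs had a higher conversion rate than U-poor 3′ UTRs in each library of both states. The rate is the number of T>C conversions over covered T positions, and the set value is the median over its intervals. At D0 the U-rich rate was 1.28, 1.31 and 1.18% in the 3 libraries, and the U-poor rate 0.999, 1.19 and 0.914%. The difference within a library was 0.29 ± 0.13 (log2, mean ± SD, n = 3). At D6 the U-rich rate was 5.06, 4.56 and 3.95%, beside 4.34, 4.05 and 3.39% in the U-poor set, a difference of 0.21 ± 0.03. At 10000 covered T these differences were 0.14 ± 0.16 at D0, where library 27 was on the other side of 0 at -0.03, and 0.14 ± 0.03 at D6. Without 4sU the median rate at this coverage was 0.0367 ± 0.0144% for U-rich and 0.0247 ± 0.0137% for U-poor intervals at D0, and 0.0275 ± 0.0087% and 0.0168 ± 0.0039% at D6.

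After 9 h of chase at D0, U-rich 3′ UTRs had less of their label left than U-poor 3′ UTRs, and this held in all 3 libraries at each of the 3 coverage minimums. At 10000 covered T, U-rich intervals kept 16.5, 14.1 and 17.4% of their rate at 0 h, and U-poor intervals 27.8, 23.4 and 29.7%. The means were 16 ± 1.71% and 27 ± 3.23% (SD, n = 3), and the libraries of the sets did not overlap. The within-library difference, relative to that at 0 h, was -0.75 (log2). At 500 reads the means were 19.9 ± 1.02% and 26.8 ± 2.09%, and at 1000 covered T 9.47 ± 6.46% and 13.2 ± 8.83%, with library 35 at 2.05% and 3.19%. Most of the loss came after the third time point, which the labels place at 3 h and the methods at 6 h. The U-rich set at 10000 covered T held 97.5 ± 2.70% of its label at the second time point (U-poor 98.5 ± 1.24%) and 69.4 ± 2.71% at the third (U-poor 75.4 ± 1.25%). Where conversions were pooled over all intervals of a set, so that the most abundant mRNAs weighed most, the difference at 9 h shrank to -0.11.

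At D6 the sign of the difference depended on the coverage. Over the 540 U-rich intervals the label left was 10.0, 3.28 and 3.93% in libraries 16, 17 and 18, against 9.86, 1.06 and 2.04% in the U-poor set, a difference of 0.87 ± 0.81 (log2) towards more label in U-rich intervals. With 10000 covered T it was 14.3, 7.72 and 8.51% against 16.7, 13.8 and 14.4%, a difference of -0.61 ± 0.34 towards less. At 500 reads the means were 12 ± 3.62% for U-rich and 15.2 ± 1.41% for U-poor intervals, a difference of -0.38. Of the members 33.9% and 32.1% of those covered had no conversion at all in libraries 17 and 18, beside 42.9% and 36.3% of the U-poor intervals. The part of coverage in the result was not tested beyond these values. The means at 10000 covered T were 10.2 ± 3.62% and 15 ± 1.52%, with the libraries of the sets overlapping, and the plot of the set ratio by library shows both minimums side by side.

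**Figure D1:**
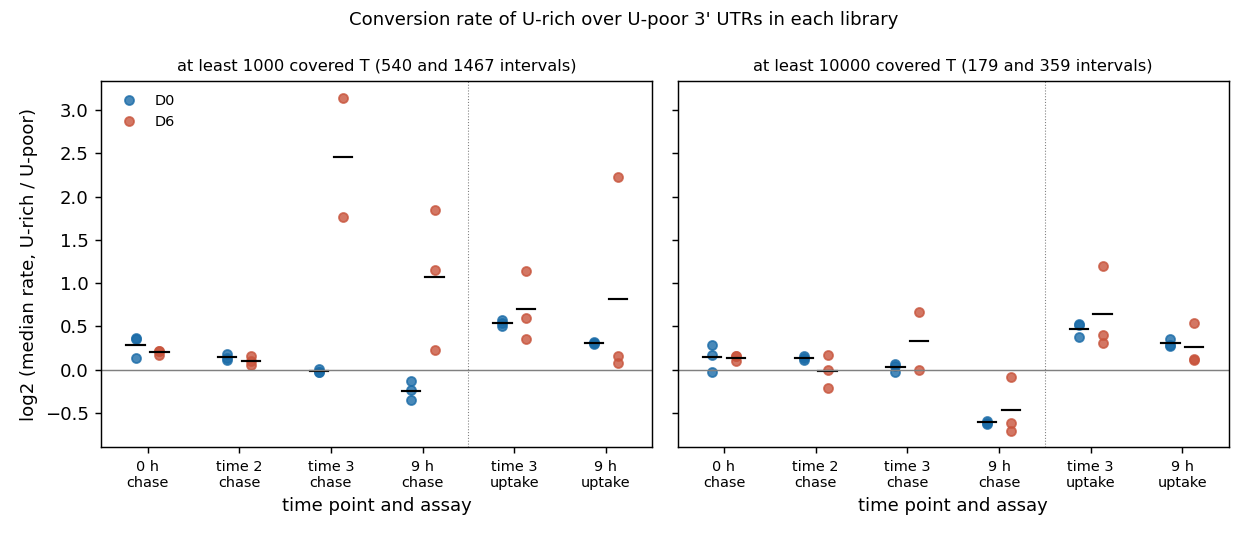
Log2 ratio of the median conversion rate of U-rich over U-poor 3′ UTRs in each library (points; bars are group means) for D0 and D6, by time point of chase and of uptake, at 1000 covered T (left) and 10000 covered T (right). At 9 h of chase all D0 libraries lie below 0 in both panels, whereas the D6 libraries lie above 0 on the left and below 0 on the right.

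During uptake at D0, U-rich 3′ UTRs had more of their final label than U-poor 3′ UTRs at the third time point. The U-rich set had then reached 50.2, 48.9 and 45.6% of its rate after 15 h, and the U-poor set 43, 40.7 and 37.2%. The means were 48.2 ± 2.38% and 40.3 ± 2.95%, and 38.1 ± 1.49% and 30.5 ± 2.52% at 10000 covered T, without overlap of the libraries in either case. At 9 h the sets had 106 ± 4.29% and 104 ± 4.64% at 1000 covered T, and 92.8 ± 8.30% and 83.1 ± 4.99% at 10000 covered T. Relative to 15 h the difference at 9 h was 0.02 ± 0.13 (log2) and 0.16 ± 0.16, so that neither was beyond its spread. At D6 the difference at 9 h of uptake was 0.61 ± 1.22 and rested on library 53, without which it was -0.09. The D6 sets at 10000 covered T reached 73.3 ± 18.6% and 69.8 ± 26.3% of their rates after 15 h. The uptake and decay values of a state share their 15 h libraries and are not independent of each other.

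Label left was lower in classes of higher T share mainly below 28% T. With 10000 covered T it was 30.9 ± 1.04% at D0 for intervals under 22% T (66 intervals), 26.1 ± 3.48% from 22 to 25%, 18.8 ± 2.97% from 25 to 28%, 16.2 ± 3.33% from 28 to 31%, 16.6 ± 2.39% from 31 to 34% and 14.6 ± 2.77% from 34 to 36%. The U-rich classes held 17.1 ± 2.07% (36 to 38%, 127 intervals) and 12.7 ± 5.53% (at least 38%, 52 intervals). Each mean differed from that of the class from 34 to 36% by less than the larger of the SDs compared. All classes were measured in the same libraries, and differences within a library were not computed for them. At D6 the values went from 16.4 ± 1.56% under 22% to 10.4 ± 2.63% from 34 to 36%, and were 10.3 ± 3.58% and 9.56 ± 3.43% in the U-rich classes. At 500 reads the D0 values ran from 30.1 ± 0.87% under 22% to 16.6 ± 1.14% from 34 to 36%, and the U-rich classes lay above the latter at 20.7 ± 0.90% and 18.6 ± 1.80%. With 1000 covered T the D6 values had the opposite order, from 3.06 ± 3.67% under 22% to 5.86 ± 3.10% from 36 to 38%, which is within their spread.

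**Figure D2:**
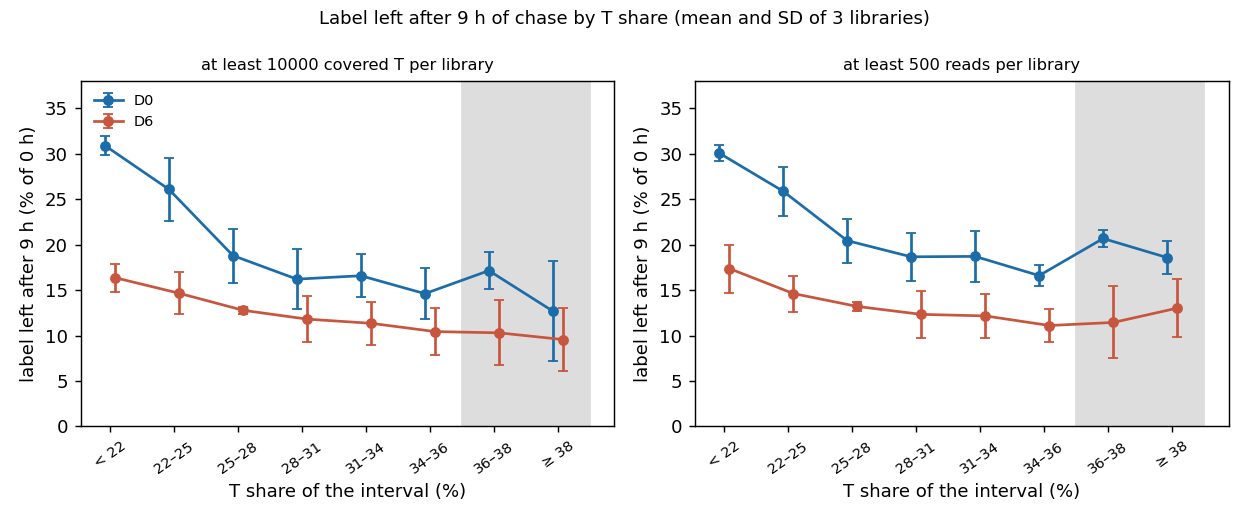
Label left after 9 h of chase, as a percentage of the rate at 0 h, in classes of T share (mean and SD of 3 libraries) for D0 and D6, at 10000 covered T (left) and 500 reads (right) per library; the grey band holds the U-rich classes. At 10000 covered T the D0 values go from 30.9% under 22% T to 12.7% at 38% T or more.

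Within the U-rich set the label left differed with the number of AUUUA pentamers. At D0, with 10000 covered T, the 32 U-rich intervals without the pentamer kept 27.8 ± 2.82% of their label, the 43 with 1 or 2 kept 17.3 ± 2.21% and the 91 with at least 3 kept 11.1 ± 3.35%. U-poor intervals kept 29.2 ± 4.05% (197 without), 25.7 ± 2.71% (115 with 1 or 2) and 15.8 ± 5.66% (26 with at least 3). Over all lengths, U-rich and U-poor intervals without the pentamer thus differed by less than the spread between libraries. So did those with at least 3, whereas those with 1 or 2 differed by more. All classes were measured in the same libraries, and differences within a library were not computed for them. At D6 the U-rich values were 16.6 ± 3.31%, 10.4 ± 3.08% and 8.98 ± 3.46%.

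Length goes with the pentamer number, since the median length was 295, 450 and 1631 bases in the U-rich classes. From 200 to under 500 bases the order at D0 was the same, with 29.3 ± 3.20% (29 intervals without), 21.5 ± 3.39% (24 with 1 or 2) and 9.71 ± 3.33% (8 with at least 3). In this range the U-poor intervals without the pentamer kept 36.4 ± 1.92% (97 intervals), which is above the U-rich value by more than the spread. Those with 1 or 2 kept 23.6 ± 10.1% (31 intervals). From 500 to under 1000 bases there was no such order, at 10.7 ± 4.66% (14 with 1 or 2) and 13 ± 3.54% (16 with at least 3). U-rich intervals with the nonamer TTATTTATT kept 9.45 ± 6.23% (18 intervals), and those with a run of at least 10 T kept 17.2 ± 0.58% (53 intervals). The part of length, abundance and other sequence in these values was not tested.

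**Figure D3:**
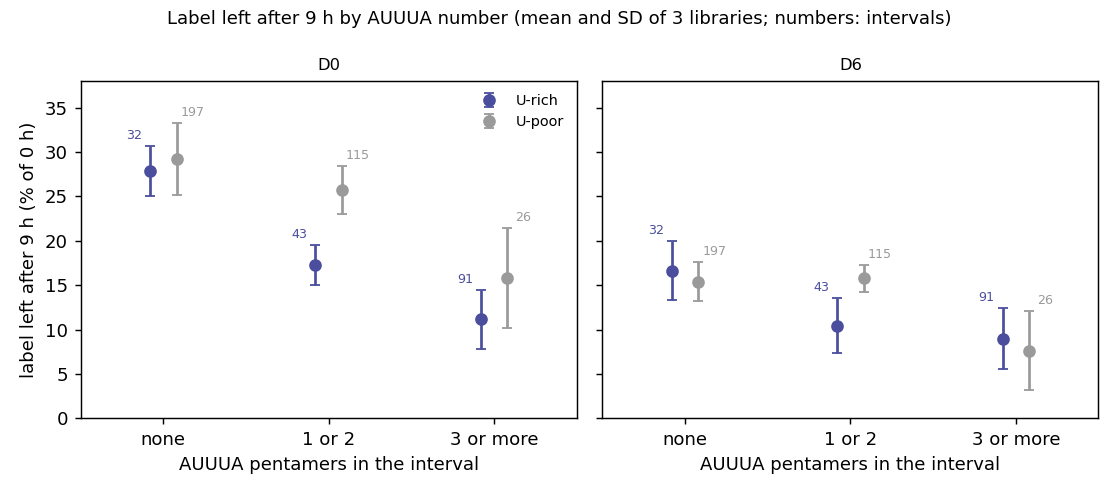
Label left after 9 h of chase, as a percentage of the rate at 0 h, by the number of AUUUA pentamers for U-rich and U-poor 3′ UTRs with at least 10000 covered T (mean and SD of 3 libraries; small numbers give the intervals) at D0 and D6. At D0 the U-rich values fall from 27.8% without the pentamer to 11.1% with 3 or more.

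The change from 0 to 9 h of chase was next tested for each interval relative to the typical interval of the same library, with edgeR's quasi-likelihood test on conversions and Benjamini-Hochberg adjustment over all 9820 intervals at 0.05. The typical interval itself lost most of its label. At 10000 covered T the library medians at D0 were 1.34 to 1.47% at 0 h and 0.225 to 0.291% after 9 h. At D6 they were 4.27 to 4.95% and 0.514 to 0.697%. Rates without overlap between 0 and 9 h therefore do not by themselves mark an interval as fast. At D0, 9 of 540 U-rich intervals (1.67%) lost label faster, beside 0.835% of all intervals, and 11 (2.04%) lost it more slowly, beside 2.29%. The share called faster at D0 was not stable, with 0.185% beside 0.305% of all intervals without library 27 or without library 35, 0.370% beside 0.418% without library 34, and 4.26% beside 4.13% in DESeq2. It stayed above that of all intervals without library 25 (0.556%, beside 0.346%), 26 (0.741%, beside 0.387%) or 36 (1.30%, beside 0.743%). In the U-poor set 6 of 1467 (0.409%) were called faster and 29 (1.98%) slower. The median log2 change was -0.25 in the U-rich set, 0.29 in the U-poor set and 0.00 over all. At D6, 5 U-rich intervals (0.926%) were called faster, beside 0.733% of all, and 7 (1.30%) slower, beside 2.04%, with a median of -0.03. Without library 16 the faster share was 1.85%, beside 1.72%, and without library 07 or library 08 it was 0.370%, beside 0.295 and 0.244%. The slower calls at D6 fell to 4 (0.741%) without library 08 or library 17, beside 1.08% and 1.60% of all. Scaling by the pooled rate of each library instead moved the median of all intervals to -0.60 at D0 and -0.64 at D6. The U-rich calls then became 18 faster (3.33%, beside 2.11% of all) and 7 slower (1.30%, beside 1.07%) at D0. At D6 they became 9 faster (1.67%, beside 1.75%) and 4 slower (0.741%, beside 1.11%).

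The faster U-rich intervals at D0 were those of Qk, Sf3b4, Tmx1, Hsf2, Tut4, Caap1, Fam53a and, with 2 overlapping intervals, Kdm6a. Of these 9 intervals 6 held at least 3 ATTTA, as did 268 of the 504 tested U-rich intervals with a sequence, and that of Fam53a held none. Tut4 encodes a terminal uridylyltransferase that adds U to RNA ends, Hsf2 a heat shock transcription factor and Kdm6a a histone demethylase. Tut4 went from 202 conversions in 16544 covered T (library mean 0.984 ± 0.607%) to 0 in 31671. By these pooled counts it was at least 129-fold lower, with a floor of 3 conversions over the group. Kdm6a went from 272 conversions in 17837 covered T to 1 in 40961. Caap1 and Fam53a likewise fell to 1 conversion, from 130 and 237. Hsf2 fell from 1.74 ± 0.546% to 0.0498 ± 0.0355% (log2 -2.78 ± 0.76, edgeR adjusted p = 0.0338), a call that held in 8 of 16 other settings. The calls of Tut4, Kdm6a, Caap1 and Fam53a rest on 4684 to 10157 covered T per library and held in 5 to 7 of the 12 to 16 other settings, left-out libraries included.

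Qk encodes quaking, an RNA-binding protein of the STAR family that acts in splicing and mRNA stability. At D0 its rate was 2.10, 2.29 and 0.876% at 0 h, and 0, 0 and 0.0108% after 9 h, that is 1 conversion in 31841 covered T. The groups did not overlap. The log2 change was -6.61 ± 1.28 in edgeR (adjusted p = 0.00132). The rate without 4sU was 0.0887 ± 0.0727%, above that after 9 h, so that the change gives no size for the loss of label. At D6 the rate of Qk was 7.07, 6.71 and 6.32% at 0 h, and 6.90, 1.54 and 0.761% after 9 h, where the libraries ranged widely. The difference between the states was 8.36 ± 1.55 (log2, slower at D6, adjusted p = 0.0319 in edgeR). Qk was the only U-rich interval called for this difference, 0.185% of the set beside 0.0204% of all intervals, and none was called faster at D6, beside 0.0407% of all. Unadjusted p was under 0.05 for 57 of the 540 U-rich intervals, beside 1169 of all 9820. DESeq2 called 6 slower (1.11%, beside 0.825% of all) and 4 faster (0.741%, beside 1.35%). The call of Qk held in 10 of 18 other settings, left-out libraries included. It was lost without any of the D6 libraries 07, 08 and 09 or the D0 libraries 25, 26, 34 and 35. These are values of this interval and not of the gene. A better covered interval lies in the same cluster of overlapping intervals, and its decay is not given here.

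Sf3b4, a subunit of the SF3b complex of the spliceosome, had rates of 1.94, 2.65 and 3.06% at 0 h of D0 and of 0.00464, 0 and 0.0674% after 9 h (log2 -4.42 ± 1.14, edgeR adjusted p = 0.0224), beside 0.0716 ± 0.0688% without 4sU. Tmx1, a thioredoxin-like membrane protein of the endoplasmic reticulum, went from 1.13, 2.72 and 1.77% to 0.0684, 0.00593 and 0.0734% (log2 -2.90 ± 0.75, adjusted p = 0.023), beside 0.0381 ± 0.0449% without 4sU. For both, every library at 9 h lay below every library at 0 h, which alone does not set them apart from an interval of typical loss. The call of Sf3b4 held in 11 and that of Tmx1 in 10 of 16 other settings. At D6 Sf3b4 and Tmx1 were not called by edgeR, with log2 changes of -0.40 ± 0.97 and -0.08 ± 0.69.

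The faster intervals at D6 were those of Atf2, Topors, Zcchc10, Otud4 and Arl6, and edgeR did not call these at D0. Atf2, a bZIP transcription factor, had 3.87, 4.81 and 4.66% at 0 h of D6 and 0.0423, 0.0364 and 0.0133% after 9 h (log2 -4.21 ± 0.98, edgeR adjusted p = 0.00988). Its rate without 4sU was 0.0247 ± 0.0183%, close to that after 9 h, so that here too the change gives no size for the loss. Topors, a RING-type ubiquitin and SUMO ligase, had 4.35, 4.42 and 7.41% and then 0, 0 and 0.0150%, the last from 1 conversion. Zcchc10, a CCHC zinc finger protein, went from 6.05, 5.09 and 6.34% to 0.0983, 0 and 0.0232%. None of these groups overlapped, and Zcchc10 had 0.278 ± 0.332% without 4sU. Otud4, a deubiquitinase, fell from 3.5 ± 1.86% to 0.0376 ± 0.0241%, below its 0.137 ± 0.212% without 4sU. Arl6, a small GTPase of the primary cilium, went from 8.6 ± 2.70% to 0 of 11494 covered T, at least 282-fold lower. Atf2 kept its call in 15 of 16 other settings, Topors in 10 of 13, Zcchc10 in 9 of 16, Otud4 in 8 of 16 and Arl6 in 6 of 13. At D0 Atf2 had 0.606, 1.75 and 0.354% at 0 h and 0.191, 0.399 and 0.271% after 9 h.

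Slower loss was called in both states for 7 intervals, among them those of Actb, Mdh1, Myl12a, Pfn1, Srsf9 and Tceal9. They were 7 of the 11 U-rich intervals called slower at D0 (63.6%) and 7 of 7 at D6. Over all intervals 133 were called slower in both states, 59.1% of the 225 at D0 and 66.5% of the 200 at D6. No U-rich interval was called faster in both states, beside 5 of all intervals (6.1% of the 82 at D0 and 6.94% of the 72 at D6). Actb, Pfn1 and Myl12a encode cytoplasmic actin, the actin-binding profilin and a myosin regulatory light chain, Mdh1 the cytosolic malate dehydrogenase, and Srsf9 a splicing factor of the SR family. Actb was also the most covered of all U-rich intervals.

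Actb had 1.32, 1.17 and 1.18% at 0 h of D0 and 0.773, 0.789 and 0.763% after 9 h, when 63.3 ± 1.07% of the label was left (log2 1.75 ± 0.19 relative to the typical interval, edgeR adjusted p = 1.27e-07). At D6 it had 5.01, 4.91 and 4.85% and then 2.01, 1.71 and 1.78%, with 37.3 ± 3.22% left (log2 1.60 ± 0.19, adjusted p = 4.04e-07). Without 4sU the rate of Actb was 0.0799 ± 0.0107% at D0 and 0.0979 ± 0.0144% at D6, and subtracting it changed the label left to 60.7 and 36%. Actb kept its call in 16 of 16 other settings in both states. Its processed pseudogenes can take or lose reads in mapping. The deposited counts recorded 0 multimapped reads, and the part of pseudogenes in the values of Actb was not tested.

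For Pfn1, Myl12a, Srsf9 and Tceal9 the rate without 4sU was a larger part of the rate after 9 h, and for Pfn1, Srsf9 and Tceal9 it was high in both states, with means of 1.29, 1.15 and 0.727% at D0 and 1.39, 1.27 and 0.668% at D6. Pfn1 had 2.84, 5.57 and 2.54% at 0 h of D0 and 2.24, 2.16 and 2.30% after 9 h, beside 1.25, 1.46 and 1.17% without 4sU. Myl12a had 2.23, 1.93 and 1.97% and then 0.922, 1.37 and 1.28%, beside 0.444, 0.738 and 0.391%. After subtraction Pfn1 kept 39.9 ± 2.85% and Myl12a 43.9 ± 15.6% at D0, and 29.6 ± 4.84% and 27.9 ± 9.64% at D6. For Tceal9 subtraction lowered the label left at D0 from 42 ± 1.59% to 8.12 ± 2.51%, and for Srsf9 at D6 from 32.3 ± 4.24% to 8.32 ± 5.73%. With limma on the subtracted rates both changed sign against the typical interval, to a log2 of -0.75 (adjusted p = 0.412) and -0.70 (adjusted p = 0.672), and neither was called. Mdh1 had 0.651 ± 0.222% at 0 h of D0 and 0.781 ± 0.114% after 9 h, beside 0.210 ± 0.178% without 4sU. Its label left was 120 ± 17.5% at D0 and 46.2 ± 25.6% at D6. At D0 the call of Mdh1 held in 15 of 15 other settings and those of Srsf9 and Tceal9 in 13 of 16. At D6 they held in 9 of 15 (Mdh1), 9 of 16 (Srsf9) and 10 of 16 (Tceal9).

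Called slower by edgeR at D0 and not at D6 were Psma2, a subunit of the 20S proteasome, Snrpf, an Sm protein of the spliceosome, Cfdp1 and Stard3nl. Psma2 and Snrpf had low rates without 4sU (0.0200 ± 0.0182% and 0.00466 ± 0.00719%) and kept 52 ± 18% and 93.5 ± 36% of their label. Cfdp1 kept 84.2 ± 16.9%, with 0.694 ± 0.119% without 4sU. Stard3nl had no conversion in 4909 covered T at 0 h and 44 in 16666 after 9 h, so that no label left can be given for it. The calls of Snrpf and Cfdp1 held in 13 of 16 other settings and that of Psma2 in 10 of 16. That of Stard3nl held in 6 of 13, and with only 1 of 6 left-out libraries.

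**Figure D4:**
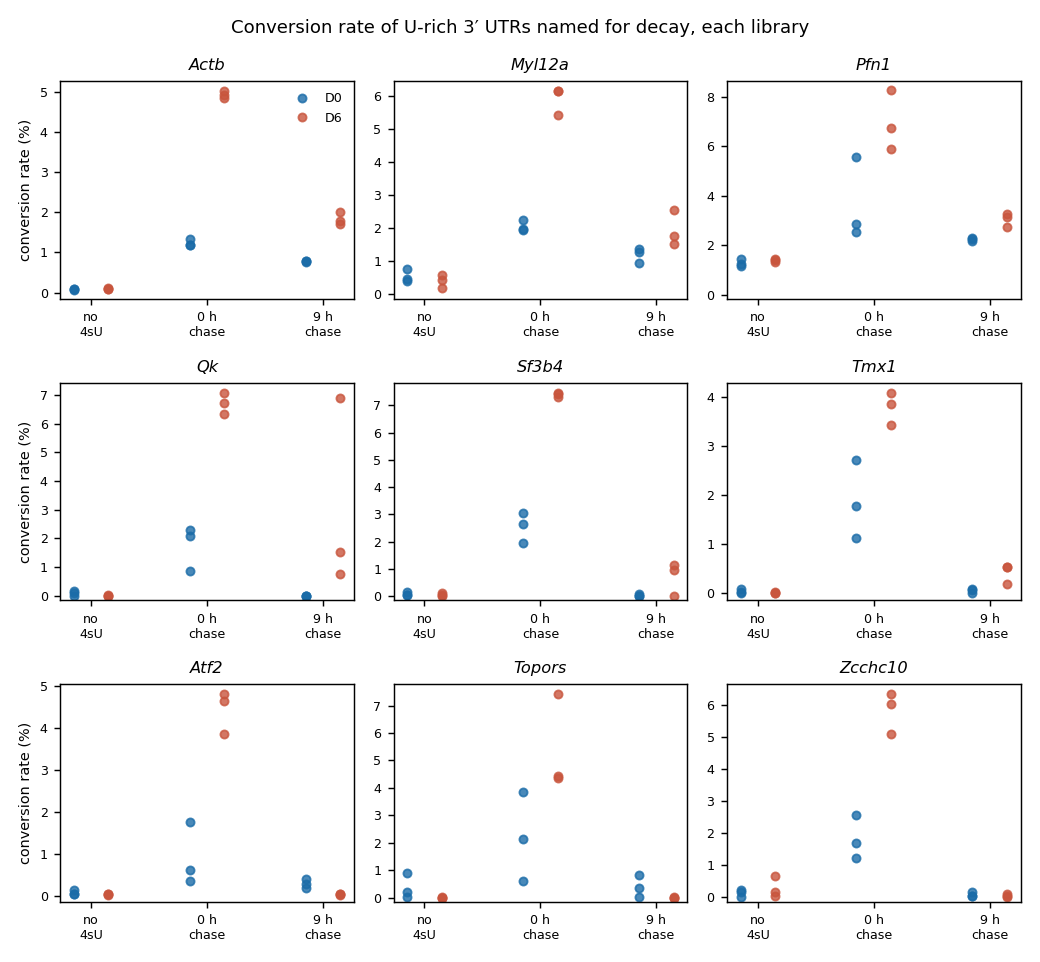
Conversion rate (%) in each library without 4sU, at 0 h and at 9 h of chase, for 9 U-rich 3′ UTRs named for their decay, D0 and D6 side by side, with a vertical scale of its own in each panel. Actb stays at 0.763 to 0.789% after 9 h at D0, while Qk is at or near 0 at D0 and between 0.761 and 6.90% at D6.

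The labeling after 15 h and the uptake gave almost no calls among U-rich intervals. For labeling at D6 against D0, edgeR called 0 of 540, beside 0% of all intervals in either direction, with 31 at an unadjusted p under 0.05 (529 of all 9820), and DESeq2 called 1 (0.185%, beside 0.143%). For uptake at D0 edgeR called 0, beside 0% of all, with 31 at an unadjusted p under 0.05 (593 of all), and DESeq2 called 3 (0.556%, beside 0.591%). For uptake at D6 edgeR called 0, beside 0.0102% of all in the lower direction and 0% in the higher, with 42 at an unadjusted p under 0.05 (658 of all). DESeq2 called 6 lower (1.11%, beside 0.540%) and 1 higher (0.185%, beside 0.244%). Stard3nl had the smallest p for labeling (adjusted p = 0.327) and for uptake at D0 (adjusted p = 0.227), and Sec23b, a subunit of the COPII coat, for uptake at D6 (adjusted p = 0.424), where it had no conversion in any of the 3 libraries at 9 h of uptake.

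Relative decay in the 2 states went the same way in 116 of 179 U-rich intervals at 10000 covered T (64.8%), in 263 of 359 U-poor intervals (73.3%) and in 2110 of 3126 in all (67.5%). At 1000 covered T the shares were 58.3, 57.1 and 58.2%. Half-lives came from an exponential loss over the hours of the methods and were kept where R squared was over 0.6. This left 99 of 540 U-rich intervals at D0, with a median of 291 min, and 143 of 1467 U-poor intervals, with a median of 273 min. At D6, 89 U-rich intervals had a median of 217 min and 183 U-poor intervals 201 min. The medians moved with the fit, that of the U-rich set at D0 to 176 min from 0 and 9 h only, that of the U-poor set at D0 to 434 min without the R squared minimum and at D6 to 115 min with the hours of the labels. The log2 ratio of the medians was 0.09 (jackknife SE 0.18) at D0 and 0.11 (SE 0.14) at D6, each less than its error. The fit kept 18.3% of the U-rich and 9.75% of the U-poor intervals at D0. In 33 U-rich intervals fitted in both states the half-life was shorter at D6 in 23 (69.7%), beside 70.6% of all 415 such intervals.

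The 5 tested intervals with the highest T share were Palb2 (46.1%), Cenpc1 (45.9%), Nup107 (45.6%), Ifrd1 (45.1%) and Pfdn4 (44.7%), all 217 to 266 bases long. Ifrd1, a transcriptional co-regulator, was the best covered. It had 1.44, 1.45 and 1.69% at 0 h of D0 and 0.125, 0.0892 and 0.126% after 9 h, without overlap (log2 -1.36 ± 0.63 in edgeR, adjusted p = 0.231). At D6 it had 4.65, 4.79 and 4.42% and then 0.818, 0.0587 and 0.287% (log2 -0.69 ± 0.62, adjusted p = 0.623). Pfdn4, a prefoldin subunit with the nonamer shown above, had a log2 change of 1.04 ± 1.17 at D0 and of -2.16 ± 1.22 at D6 (adjusted p = 0.672 and 0.377). Palb2, a partner of the BRCA2 protein, had no read in any D6 library at 0 h, and no decay value is given. None of the 5 was called by edgeR in any comparison, while Nup107 was called for decay at D0 in 1 of 10 alternative settings.

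Abundance was compared in the 6 libraries without 4sU, with edgeR on reads. Among 584 U-rich intervals tested, 21 (3.60%) were higher at D6, beside 7.04% of all 11075 intervals, and 16 (2.74%) were lower, beside 5.16%. DESeq2 called 35 in each direction (5.99%, beside 10.6% higher and 8.48% lower of all). Without library 39, 13 were higher (2.13%, beside 4.26%), and 9 were lower without library 55 (1.47%, beside 3.11%), 10 without 38 (1.59%, beside 3.44%) and 24 without 56 (3.8%, beside 4.67%). Among 1760 U-poor intervals 150 were higher (8.52%) and 86 lower (4.89%). A difference in reads cannot tell fewer cells of a type from less RNA per cell. The plot of reads by library shows the 37 called U-rich intervals.

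Among the intervals higher at D6 were those of Hoxa3, Hoxa2, Gpm6a, Dner, Rai2, Adgrb3, Pcdhb3 and Cdkn2c. Hoxa3 and Hoxa2, homeobox factors of the hindbrain that retinoic acid induces, had 0.288, 0.378 and 0 RPM at D0 and 132, 139 and 168 at D6 (Hoxa3), and 2 and 750 reads in all (Hoxa2). Hoxa3 had the smallest p of all U-rich intervals (log2 9.30 ± 0.78, edgeR adjusted p = 3.21e-05). Gpm6a, a neuronal membrane glycoprotein, went from 2.88, 0.378 and 0.152 to 134, 206 and 209 RPM (adjusted p = 0.000331). Dner, a neuronal Notch ligand, went from 0.773 ± 1.09 to 119 ± 32.3, and Rai2 from 1 read to 520. Adgrb3, Pcdhb3 and Cdkn2c had no read at D0 and were at least 120, 117 and 71 times higher at D6, with a floor of 3 reads over the group. The calls of Hoxa3, Hoxa2, Gpm6a, Dner and Rai2 held in 8 of 8 other settings, those of Adgrb3 and Pcdhb3 in 4 and 5, and that of Cdkn2c in 1.

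Other intervals higher at D6 included those of Marcks, Elavl2, Dync1i2, Top2b and Cdc42. Marcks, an actin-binding substrate of protein kinase C, had 857, 285 and 745 RPM at D0 and 2009, 1752 and 2502 at D6 (log2 1.80 ± 0.34, edgeR adjusted p = 0.00555). Elavl2, an ELAV protein that itself binds U-rich sites, had 186, 191 and 206 and then 565, 772 and 618 (log2 1.78 ± 0.26, adjusted p = 0.00129). Dync1i2, a dynein intermediate chain, and Top2b, the topoisomerase of postmitotic cells, rose by 1.44 ± 0.24 and 1.37 ± 0.32 (log2). The U-rich interval of Cdc42, a small GTPase, went from 6.30 ± 6.06 to 233 ± 48.6 RPM, which is a value of this interval and not of the gene.

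Among the intervals lower at D6 were those of Plagl1, Npm1, Cenpw, Fbxo5, Lbr, Ncapd2 and Gpr37. Plagl1, an imprinted zinc finger factor, had 650, 317 and 541 RPM at D0 and 62.8, 70.3 and 60.5 at D6 (log2 -2.90 ± 0.31, edgeR adjusted p = 0.000179). Npm1, the nucleolar chaperone, had 1399, 974 and 1438 and then 368, 253 and 359 (log2 -1.92 ± 0.25, adjusted p = 0.000626). Cenpw, a protein of the centromere, had 316, 337 and 405 and then 30.7, 59.7 and 67.4 (log2 -2.71 ± 0.37, adjusted p = 0.000865). Fbxo5, an inhibitor of the anaphase-promoting complex, Lbr, the lamin B receptor, and Ncapd2, a condensin subunit, fell by 1.70 ± 0.33, 1.62 ± 0.34 and 0.83 ± 0.24 (log2). Gpr37 fell from 562 reads in all to 1. The call of Ncapd2 held in 2 of 8 other settings.

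Srsf9 and Otud4 were called both for decay and for abundance. Srsf9, slow to lose label in both states before subtraction, fell from 673 ± 111 to 270 ± 10.1 RPM (log2 -1.28 ± 0.24), and Otud4, fast at D6, from 171 ± 19.1 to 71 ± 20 (log2 -1.23 ± 0.36), a call that held in 2 of 8 other settings. Marcks, Plagl1, Npm1 and Elavl2 were not called for decay in either state by edgeR, while Marcks was called at D0 in 2 and Npm1 in 3 of 10 alternative settings.

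**Figure D5:**
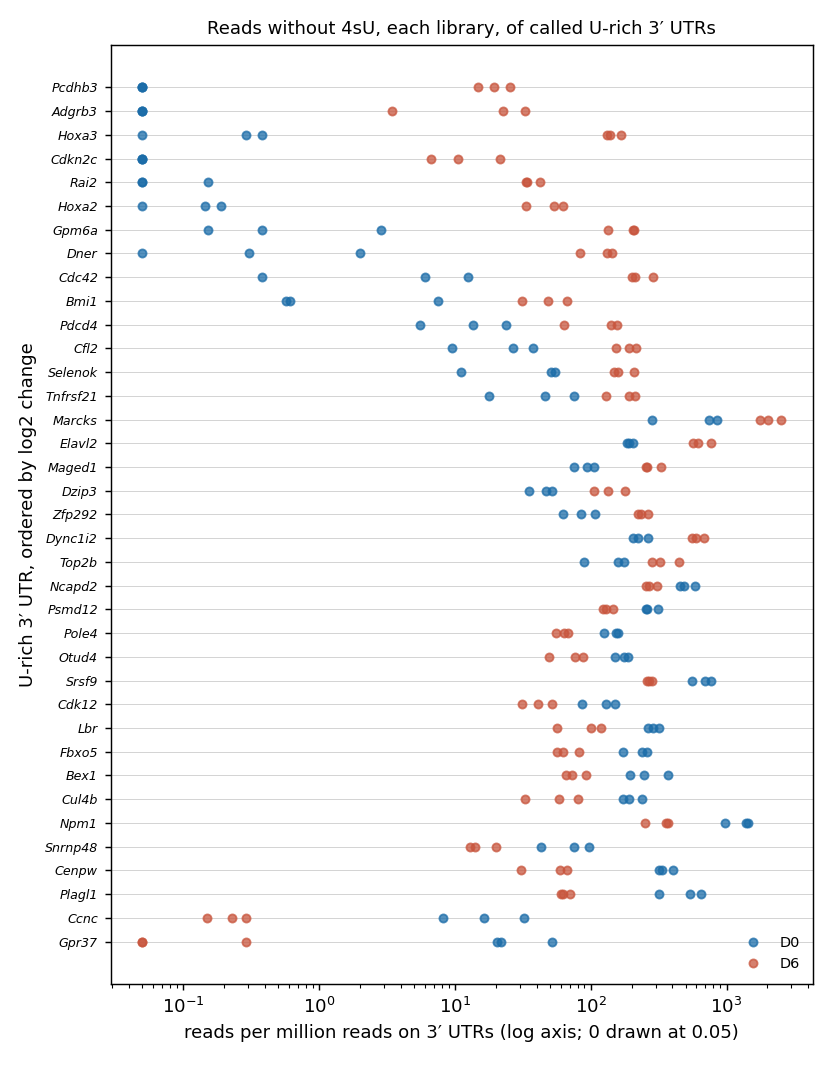
RPM, reads scaled to the library's total on 3′ UTRs (log axis, 0 drawn at 0.05) in each library without 4sU for the 37 U-rich intervals called between D6 and D0, ordered by the log2 change. Every D6 library of Hoxa3 lies between 132 and 168, and every D0 library between 0 and 0.378.

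Among the gene lists that were looked up, 4 of 30 intervals of U- and AU-rich element binding proteins were U-rich themselves (13.3%, beside 6.46% of all intervals in the length range). They were Elavl2, Ptbp2, Ssb and Cpeb2. Of these only Elavl2 was called by edgeR, for reads, while Ptbp2 was called for decay at D0 in 1 of 7 alternative settings and with 1 of 6 left-out libraries, and for reads with 1. Ssb, the La protein, had 1.33, 1.35 and 1.76% at 0 h of D0 and 0.248, 0.263 and 0.327% after 9 h (log2 -0.01 ± 0.51), and Ptbp2, the neuronal PTB protein, 1.92, 0.243 and 1.16% and then 0, 0 and 0.0559% (log2 -3.55 ± 1.26, edgeR adjusted p = 0.119). The groups of Ptbp2 did not overlap at D0, but the typical interval also lost most of its label, and edgeR did not call Ptbp2 relative to it.

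Of the immediate early and short-lived mRNAs 3 of 43 intervals were U-rich (6.98%), namely Hes1, Tob1 and Myc. Hes1, a Notch target and repressor, had conversions of 1, 0 and 1 at 0 h of D0, which gives no decay value there. At D6 Hes1 had 4.1, 3.40 and 2.68% at 0 h and no conversion in 4064 covered T after 9 h (edgeR adjusted p = 0.166). Tob1 was not called by edgeR, and Myc was too little covered to be tested. Small GTPases had 6 of 118 (Arl5b, Arl6, Cdc42, Rab11a, Rab18 and Rab21), of which Arl6 was called for decay and Cdc42 for reads. Ubiquitin conjugating enzymes had 3 of 34, phosphatase subunits 4 of 74 and the decay machinery 4 of 40, the last being Cnot2, Cnot6, Dis3l and Xrn2. None of those tested was called by edgeR, while at D6 Ppp1cb was called for decay in 4 of 10 and Ube2e2 in 2 of 6 alternative settings, and Ppp4c at D0 in 1 of 7. Cnot2 and Dis3l were too little covered to be tested for decay or labeling. None of the 13 pluripotency or 21 neuron intervals listed was U-rich.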

How the data were processed

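SLAM-seq of P19 cells gave 47 libraries. The authors mapped reads to mm10 with SLAMdunk 0.3.3 (file headers) and counted conversions on 39419 3′ UTR intervals. The deposited files hold counts (T>C conversions, covered T positions and reads), which were used, and, as the authors deposited them, a conversion rate as a fraction and reads as CPM, which were not used. Identical intervals were merged. Sequences came from GENCODE vM21 transcripts, and symbols from a RefSeq table.

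Set values are medians over intervals in each library, without a test. For single intervals, edgeR 4.0.16 (R 4.3.3) was fitted to conversions with an offset of covered T times the library's median rate, over intervals averaging 1000 covered T or more, with all groups of the comparison sharing a spread, and to reads with TMM scaling. The test was checked on simulated data, where it recovered only part of the changes put in, so that an interval not called may still have changed. Alternatives used DESeq2 1.42.0, limma 3.58.1 with the rate without 4sU subtracted, other minimums, other scalings, slopes over all time points and left-out libraries. Python 3.11.15 and scipy 1.17.1 were used. Reads carry no molecular identifiers, so that floors cover counting error only.

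Genes are named by rule: the 5 highest T shares, the 3 most covered, up to 3 smallest p in each direction of each test, and members of the lists. A member that the rule selects is not reported here. Other called members were named after their values were seen. The members, lists and tests were chosen with earlier results of these data known. The alternatives at 500 reads, those that combine 2 choices, and the length ranges of the pentamer classes were added after seeing the data.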

Additional observations from a re-analysis of the deposited data

Results flagged for a closer look

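The decay of the U-rich interval of Qk differed between the states by 8.36 (log2, slower at D6, edgeR adjusted p = 0.0319), by a test of the difference itself. It rests on 1 conversion after 9 h at D0 and on D6 libraries between 0.761 and 6.90%.

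The difference in label left between U-rich and U-poor 3′ UTRs was -0.53 (log2) at D0 and 0.87 at D6 over the tested intervals, with every D0 library below 0 and every D6 library above it. The difference between the states was not tested. At 10000 covered T, at 500 reads and with pooled conversions the D6 value was also negative.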

How the results depend on the processing

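No paired analysis was possible because the labels number every library differently, so that groups share 0 replicate numbers. For label left at D0 the set difference (log2 -0.53) was -0.75 at 10000 covered T, -1.31 there with the rate without 4sU subtracted, -0.81 for a T share of at least 38%, -0.11 with pooled conversions and -0.10 with the background subtracted from these. At D6 (0.87) it reversed to -0.61, -0.55, -0.13 and -0.12 under the same coverage and pooling choices, and to -0.38 at 500 reads. Labeling at D0 (0.29) was 0.14 at 10000 covered T, and 0.091 and 0.12 pooled, and at D6 (0.21) it was 0.24 with background subtracted, 0.14 and 0.16 at 10000 covered T, 0.13 and 0.14 pooled and 0.17 for a T share of at least 34%. Uptake at D0 (0.02) was 0.16 and 0.19 at 10000 covered T. The half-life ratio was -0.15 at D0 without a minimum of R squared, and at D6 0.35 with the labels' hours, -0.052 from 0 and 9 h only and -0.092 without that minimum. The cause was not tested.

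U-rich intervals called faster at D0 (9) were 23 with DESeq2 (4.26%, beside 4.13% of all), 18 with pooled scaling (17 at 10000 covered T, 9.5% beside 9.6%), 2 with limma (1.12%, beside 0.640%) and 1 or 16 with slopes over the methods' (0.185%, beside 0.377%) or the labels' hours (2.96%, beside 1.69%). Slower calls (11) were 24 (4.44%, beside 4.98%), 7 (7, 3.91% beside 3.84%) and, with the labels' hours, 17 (3.15%, beside 3.86%). At D6, faster calls (5) were 20 (3.70%, beside 3.98%), 9 (11, 6.15% beside 5.15%), 3 with limma (1.68%, beside 2.85%), 2 with slopes over the methods' hours (0.370%, beside 0.662%) and 2 at 100 covered T (0.287%, beside 0.407%), and slower calls (7) were 12 (2.22%, beside 4.07%) and 4 (4, 2.23% beside 3.58%). For the difference between the states DESeq2 called 4 faster and 6 slower, and 0 slower were called at 10000 covered T with either scaling, with limma, with 1 interval per cluster and with slopes over the methods' hours. Qk was tested only in the last of these, where it lost the call (adjusted p = 0.264). DESeq2 called 1 for labeling, 3 for uptake at D0, 6 lower and 1 higher for uptake at D6, and 35 lower and 35 higher for reads (5.99% each, beside 8.48% and 10.6% of all). With limma and subtraction Tceal9 at D0 reversed to -0.75 (adjusted p = 0.412) and Srsf9 at D6 to -0.70 (0.672).

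Leaving out a library gave 1 to 7 faster calls at D0 (1 without 27 or 35, 2 without 34, 3 without 25 and 4 without 26) and 8 to 11 slower. At D6 it gave 2 to 10 faster (2 without 07 or 08, 3 without 09 or 17 and 10 without 16) and 4 to 9 slower. The 4 slower without 08 or 17 were 0.741%, beside 1.08% and 1.60% of all. For the difference it gave 0 to 2 slower (2 without 16, 0.370% beside 0.143% of all). For uptake at D6 it gave 0 to 2 lower (2 without library 52, 0.370% beside 0.631% of all), and for reads 9 to 24 lower and 13 to 24 higher. Set differences ranged from 0.25 to 0.36 (labeling D0), 0.20 to 0.22 (D6), -0.60 to -0.47 (label left D0), 0.48 to 1.29 (D6), -0.05 to 0.06 (uptake D0), -0.09 to 0.98 (D6), and half-life ratios from -0.03 to 0.18 (D0) and 0.08 to 0.22 (D6). Of the values for single called intervals under other settings, 316 kept the call, 54 lost it, and those of Tceal9 and Srsf9 reversed without a call. With libraries left out, 269 kept and 157 lost it. Depth limits the values of most members, since only 179 of the 540 reached 10000 covered T per library.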
